A study of Homo sapiens with 12 samples.

Results

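PRKDC, XRCC5, XRCC6, PARP1 and DDB1 encode proteins that sense or signal DNA damage, and they were selected by gene symbol. They were 5 of the 58302 genes in the deposited input table, and they held 13 of the 2364 peaks in the authors' deposited table of differential N4-acetylcytidine (ac4C) peaks. The 5 genes were named with their peaks and input levels known, so both are described here and the peak counts carry no test. All RNA was from cultured DLD1 cells at passage 5, a line established from a human colorectal cancer. Cells carried a short hairpin RNA against NAT10 (shNAT10), the acetyltransferase that writes ac4C on RNA, or the hairpin labelled shNC, taken as the control. Each preparation started from 100 µg of RNA, sheared to 100 to 200 nt and sequenced as 150 bp pairs. Each hairpin had 3 input libraries and 3 libraries immunoprecipitated with an ac4C antibody, 12 in all, and the deposited gene table covered the 6 input libraries. The sources used here did not give how many hairpin sequences were used against NAT10, whether the lines were clones, or whether the replicates were separate cultures, so spread is that between these samples.

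Broken DNA ends are bound first by Ku, a ring made of the XRCC6 product (Ku70) and the XRCC5 product (Ku80). Ku recruits the kinase DNA-PKcs, encoded by PRKDC, to form DNA-dependent protein kinase, which starts non-homologous end joining. PARP1 binds nicks and breaks and builds chains of poly(ADP-ribose) that draw repair factors. DDB1 is the adaptor of CUL4 ubiquitin ligases, and with DDB2 it recognises ultraviolet lesions for nucleotide excision repair. Acetylated cytidine is a mark of ribosomal and transfer RNAs that has also been mapped on mRNA.

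Levels are in FPKM, fragments scaled by the length of the authors' gene model and by library size. Whole fragments were recovered from these values, and they numbered 1221118 to 1302119 on genes in the libraries labelled shNAT10 and 2633600 to 2753757 in shNC. NAT10 was listed at 0, 28.1 and 31.4 FPKM in replicates 1 to 3 of the libraries labelled shNAT10, against 1.24, 3.95 and 2.89 FPKM in shNC. Replicate 1 was thus below every shNC library and replicates 2 and 3 were above all of them, which goes against the label. The difference in log2(FPKM + 1) was 1.48 (SE 1.86, limma adjusted p = 0.754), and each direction below is that of the label. The sums of 6 epithelial markers were 8041 to 8582 FPKM in the libraries labelled shNAT10 and 5020 to 5374 FPKM in shNC, with KRT8 and KRT19, keratins of simple epithelia, the most abundant. KRT8 made up most of each sum, at 5643, 5573 and 5866 FPKM against 3112, 3774 and 3294. EPCAM, an epithelial adhesion molecule, went the other way without overlap, at 38.3, 80.3 and 128 FPKM in the libraries labelled shNAT10 against 226, 370 and 262 FPKM in shNC. KRT8, KRT18 and KRT19 were higher in the libraries labelled shNAT10 without overlap, and the groups overlapped for CDH1 and VIL1. Groups did not overlap for 9.61% of all tested genes. Sums of 8 fibroblast and muscle markers were 14.4 to 69.2 against 0 to 3.81 FPKM, and the defining collagens were low. COL1A1 was at 0, 0.0680 and 0.425 FPKM and COL1A2 at 0, 0.0598 and 0.898 in the libraries labelled shNAT10, against 0 in all shNC libraries. The collagen COL3A1 went the other way, at 0 in all libraries labelled shNAT10 and at 0.130, 0 and 0 FPKM in shNC. The extracellular matrix genes DCN and LUM and the muscle filament gene DES reached 3.18, 2.22 and 4.74 FPKM in shNAT10 replicate 3 and were at 0 in all shNC libraries. TAGLN, an actin-binding protein, had 68.9, 2.04 and 1.49 FPKM in the libraries labelled shNAT10 and 0 in all 3 shNC libraries, and ACTA2, a smooth muscle actin, had 0, 21.98 and 1.40 against 3.67, 0 and 0. Sums of 7 leukocyte markers were 0 to 2.29 against 0 in every shNC library (CD14 at most 2.29, PTPRC at most 0.199), and those of 6 endothelial and erythroid markers 0 to 1.44 against 0 (KDR at most 1.20, VWF at most 0.241). The part of these markers in the results below was not tested.

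PRKDC (ENSG00000253729, chromosome 8) encodes one of the largest kinases of the cell. It carried 5 deposited peaks, all with a negative deposited log2 fold change. Which hairpin was the numerator of that change was not stated, so a sign shows only which peaks moved the same way. A peak's fold enrichment is the authors' value and its scaling was not stated. Positions are GRCh38, counted from 1 with both ends included. From the 5′ end of the gene, which lies on the minus strand, the authors' deposited table placed the first coding-sequence peak at chr8:47953839-47954437, with a fold of 46.9 and a log2 change of -4.57. The second, at chr8:47858954-47862107, had a fold of 12.0 and a log2 change of -5.10 in the deposited table, and its 301 nt lay in 4 blocks across an interval of 3154 nt. The third, at chr8:47836369-47837233, had the lowest deposited fold of the 13 peaks, 2.13, and a log2 change of -3.19. The fourth, at chr8:47817468-47819458, had the most negative deposited change of the gene, -5.96, with a fold of 34.5. The fifth lay in the 3′ UTR at chr8:47773828-47774068 (deposited fold 6.58, log2 change -4.31). Their deposited differential FDRs ran from 1e-14 in the second peak to 0.000214 in the fifth. The first peak began 5.70 kb from the RefSeq 5′ end. The centres of the other coding peaks lay at 53.3% to 75.8% of the gene's length, and that of the last at 99.6%. This length includes introns, so the shares give no position along the mRNA. The authors listed 0 sites of their motif, a run of CXX triplets, in any of the 5 PRKDC peaks.

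DDB1 (ENSG00000167986, chromosome 11, minus strand) also carried 5 deposited peaks, and here both signs occurred. The first from the 5′ end, at chr11:61326199-61329438 in coding sequence, had a deposited fold of 40.9 and a log2 change of -7.03, the most negative of the 13 peaks (deposited FDR 2e-27). The second, at chr11:61313927-61314611, was the longest of the 13 at 511 spliced nt, with a deposited fold of 3.28 and a log2 change of -4.88. The third, at chr11:61302530-61302769, had a deposited fold of 266, the highest of the 13 and rank 106 among the 2364 deposited peaks. Its deposited log2 change was -6.98. The fourth, at chr11:61302230-61302440, lay 89 nt away in coding sequence and had the opposite sign, with a deposited log2 change of 5.44 and a fold of 2.5. Both were past the authors' differential test (deposited FDR 1.58e-19 and 6.31e-16), so 2 neighbouring pieces of the DDB1 coding sequence were listed as moving in opposite directions. The deposited log10 p, a score apart from the differential FDR, was -5.03 in the fourth peak, the weakest of the 13, and -61.3 in the third. The fifth lay in the 3′ UTR at chr11:61299991-61300201, with a deposited fold of 9.56 and a log2 change of -4.63.

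The Ku genes had 1 peak each, and the deposited changes were large and negative in both. The XRCC5 peak (ENSG00000079246) lay in coding sequence at chr2:216137103-216138175, plus strand, with a deposited fold of 9.71, a log2 change of -6.09 and an FDR of 6.31e-08. The XRCC6 peak (ENSG00000196419) lay in coding sequence at chr22:41636587-41637633, plus strand. Its deposited fold was only 3.02, yet its log2 change was -6.96 and its FDR of 1e-32 was the smallest of the 13. Both Ku peaks had 210 spliced nt in 2 blocks. They began 27.8 kb and 15.3 kb from the 5′ end of XRCC5 and XRCC6. PARP1 (ENSG00000143799) had 1 peak with a positive deposited log2 change of 2.58, at chr1:226367602-226370454, minus strand, with a fold of 2.76 and an FDR of 5.01e-12. This was the smallest change in size among the 13.

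**Figure D1:**
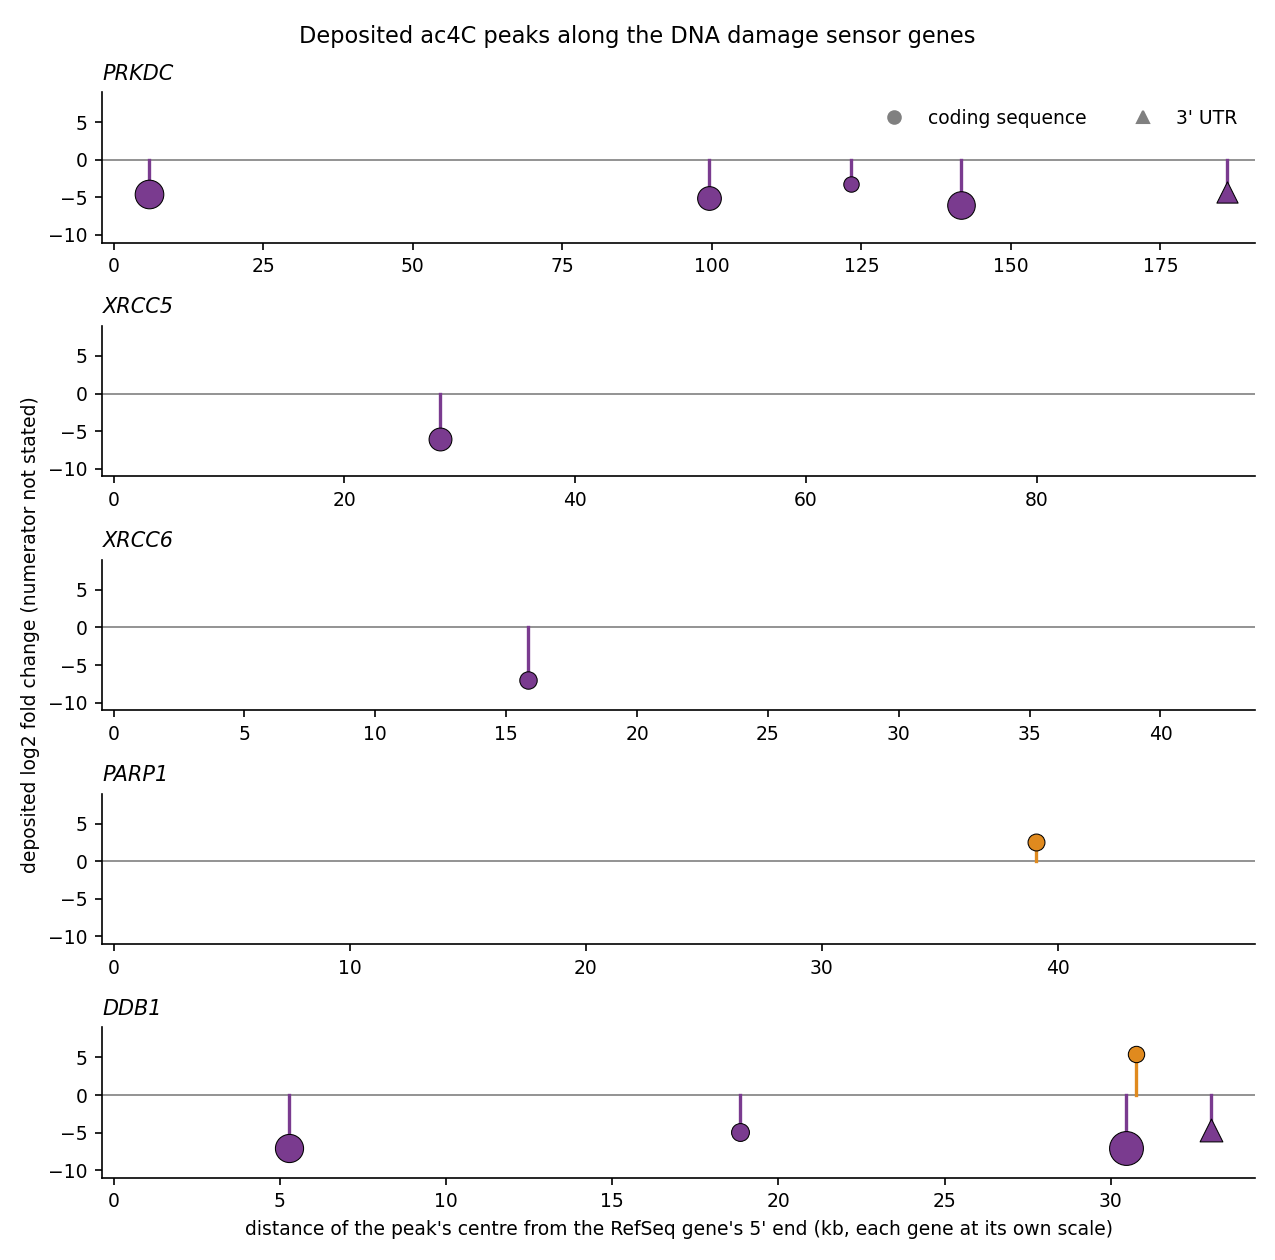
Deposited ac4C peaks of the 5 genes, each at the distance in kb of its centre from the 5′ end of the RefSeq gene (horizontal) and its deposited log2 fold change, numerator not stated (vertical). Circles are coding-sequence and triangles 3′ UTR peaks, larger symbols have a larger deposited fold, purple is negative and orange positive. All 5 PRKDC peaks and 4 of 5 DDB1 peaks lie below 0, and the orange DDB1 peak at 5.44 stands beside the purple one at -6.98.

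Set against the rest of the deposited table, the 13 peaks were more often negative, more often coding and less often listed with a motif site, all as descriptions of peaks in genes chosen for having them. The deposited change was negative for 11 of 13, against 61.7% of all deposited peaks. Coding sequence held 11 of 13 (84.6%), against 59.3% of the other 2351 deposited peaks, and the 3′ UTR held 2. Several blocks made up 10 of 13 (76.9%), against 50.5% of the other peaks and 67.6% of the 1395 other coding-sequence peaks. The median deposited fold was 9.56 against 10.5 for the others, and the median size of the log2 change was 5.10 against 4.81. The median log10 of the deposited differential FDR was -9.79 against -4.13. With 5 peaks each, PRKDC and DDB1 followed AHNAK (16), MALAT1 (13) and FAT1 (8) among the 1931 genes of the deposited table, and 12 genes had 4. Of the 17 genes with at least 4 peaks, 2 had only negative peaks, PRKDC among them, 3 had only positive peaks, and 12, DDB1 among them, had both signs.

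**Figure D2:**
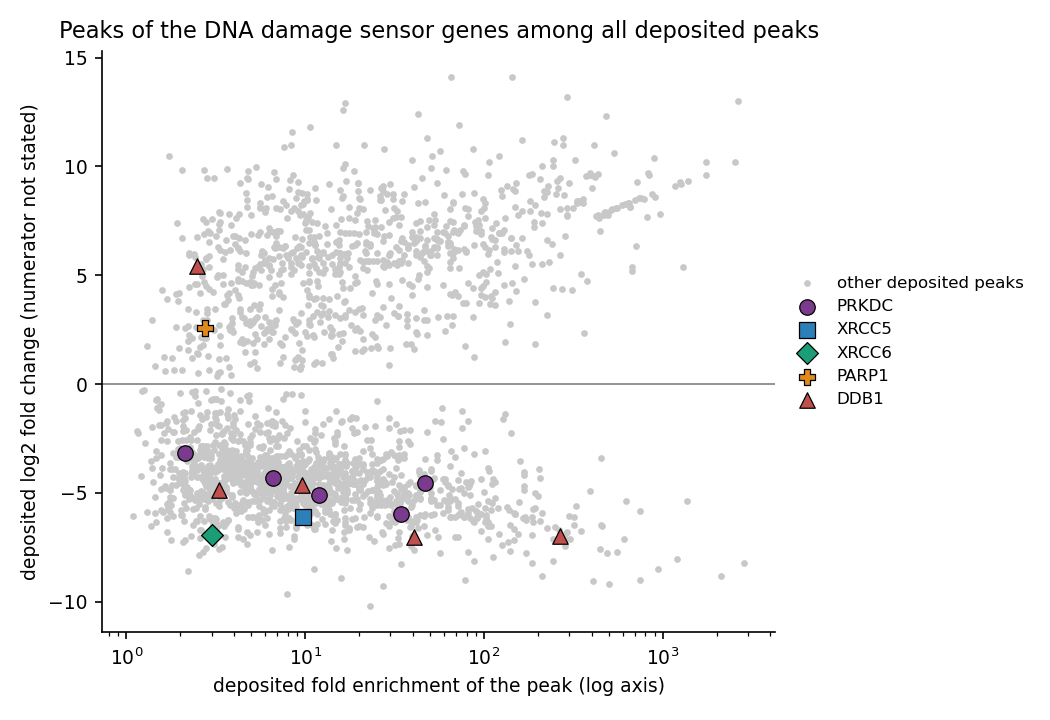
Deposited fold enrichment (horizontal, log axis) against deposited log2 fold change, numerator not stated (vertical), for the 13 peaks of the 5 genes (coloured symbols) and the other 2351 deposited peaks (grey). The highest coloured fold is 266 in DDB1, and the coloured peaks above 0 are 1 of DDB1 and 1 of PARP1.

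The authors listed motif sites in 4 of the 13 peaks (30.8%), against 62.8% of the other deposited peaks and 64.9% of the other coding-sequence peaks. The share was alike in the peaks of the other repair genes, 4 of 12 (33.3%). DDB1 held 8 of the 11 listed sites. In its 3′ UTR peak the sites were at chr11 positions 61300167, 61300071, 61300059 and 61300016. In its peak of fold 266 they were at 61302738, 61302689 and 61302595, and in its second peak at 61314394. All 8 lay inside the blocks of their peaks, and the peak of positive change had 0. The DDB1 peak of fold 266, the DDB1 peak before it and the PARP1 peak are spliced peaks on the minus strand, where only 41.4% of all listed sites lay inside blocks, so their listed positions are uncertain. PARP1 had 3 listed sites, at chr1 positions 226369818, 226369767 and 226369742. None lay inside the 3 blocks of the PARP1 peak, which hold 21, 123 and 7 nt, and each was 616 to 692 nt from the nearest block. The PARP1 count of 3 can therefore not be placed on the RNA that the peak covers. Neither Ku peak had a listed site.

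Input RNA levels came next, and the question was whether the 5 mRNAs themselves differed between the hairpins. None passed the test. By limma on log2(FPKM + 1), 0 of the 5 had an adjusted p under 0.05, against 20 (0.19%) of the 10517 genes tested (9, or 0.0856%, higher and 11, or 0.105%, lower in the libraries labelled shNAT10), and 0 of 5 had an unadjusted p under 0.05. Among the 8140 protein-coding genes tested, limma called 0 and 178 had an unadjusted p under 0.05. In bulk RNA, fewer cells expressing a gene and less RNA per cell cannot be told apart.

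XRCC5 was the gene with the widest difference. It was at 7.24, 0 and 5.96 FPKM in replicates 1 to 3 of the libraries labelled shNAT10, against 30.8, 25.1 and 18.1 FPKM in shNC. All 3 libraries labelled shNAT10 were below all 3 shNC libraries. The fragments behind these levels numbered 55, 0 and 39 against 569, 450 and 339. The means were 4.40 ± 3.87 FPKM in the libraries labelled shNAT10 and 24.7 ± 6.35 FPKM in shNC (SD, n = 3 each). On the log2 scale this is -2.70 (SE 1.77), with a 95% interval from -6.19 to 0.78 that includes 0. The limma adjusted p was 0.754, and the exact two-sided permutation p was 0.1, the smallest that 3 against 3 allows. Leaving out shNAT10 replicate 2, the library at 0, gave -1.73, while replacing the added 1 FPKM by 0.01 gave -4.99. Groups did not overlap for 9.61% of all tested genes, and 6.72% were lower in this way, so 1 gene of 5 is not read as a result about these genes.

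Its partner XRCC6 had 117, 45.5 and 36.6 FPKM in the libraries labelled shNAT10, against 122, 37.7 and 91.1 FPKM in shNC, and the groups overlapped. The means were 66.4 ± 44.3 and 83.6 ± 42.7 FPKM (SD, n = 3 each), and the log2 difference was -0.36 (SE 1.22, limma adjusted p = 0.929). Ku acts as a dimer of both proteins, which were not measured here. In FPKM, the XRCC6 mRNA was above the XRCC5 mRNA in 6 of 6 libraries. In shNC replicate 2 this order rested on the authors' scaling by gene length. Recovered fragments there numbered 407 for XRCC6 and 450 for XRCC5, at recovered lengths of 3288 and 5463 nt. The ratio of XRCC6 to XRCC5 FPKM was 16.2 and 6.13 in shNAT10 replicates 1 and 3, against 3.97, 1.503 and 5.03 in shNC, with no ratio in shNAT10 replicate 2, where XRCC5 was at 0. The 5 XRCC6 pseudogene copies that the table lists were at 0 in every library, and so were 2 of PARP1. The sources used here do not give how reads that match several copies were counted.

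PRKDC had 55.3, 7.19 and 43.2 FPKM in the libraries labelled shNAT10, against 47.5, 35.0 and 60.1 FPKM in shNC. Only shNAT10 replicate 2 lay outside the shNC range on the low side. It held 166 PRKDC fragments (6.13 to 8.37 FPKM, exact Poisson 95% interval for counting error only), against 1185 and 798 in the other two. The log2 difference was -0.80 (SE 1.42, limma adjusted p = 0.844), and without shNAT10 replicate 2 it was 0.07.

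DDB1 had 13.6, 58.9 and 34.3 FPKM in the libraries labelled shNAT10, against 27.4, 56.1 and 33.4 FPKM in shNC. The highest and the lowest of the 6 values were both in libraries labelled shNAT10. The log2 difference was -0.28 (SE 1.43, limma adjusted p = 0.957), it was 0.27 without shNAT10 replicate 1, and without shNC replicate 2 it was 0.01. The interval of -3.11 to 2.54 leaves room for changes of either sign.

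PARP1 was the most uneven of the 5. It had 30.01, 0.838 and 0.349 FPKM in the libraries labelled shNAT10, against 4.21, 0.255 and 13.8 FPKM in shNC. The highest library was 85.9 times the lowest among those labelled shNAT10 and 54.3 times among shNC. Fragments numbered 299, 9 and 3 against 102, 6 and 340, so 3 of the 6 values rested on fewer than 10 fragments. The log2 difference was -0.11 (SE 1.89, limma adjusted p = 0.989), and it was 0.49 without shNAT10 replicate 2, 0.72 without shNAT10 replicate 3 and 0.73 without shNC replicate 3. With both libraries in which NAT10 was not low left out, it was 2.76, and the difference was -1.61 in XRCC5, 0.64 in XRCC6, 0.25 in PRKDC and -1.39 in DDB1, none past the limma test (adjusted p = 0.616 to 0.784). These fits take the lone library labelled shNAT10 to vary like shNC.

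**Figure D3:**
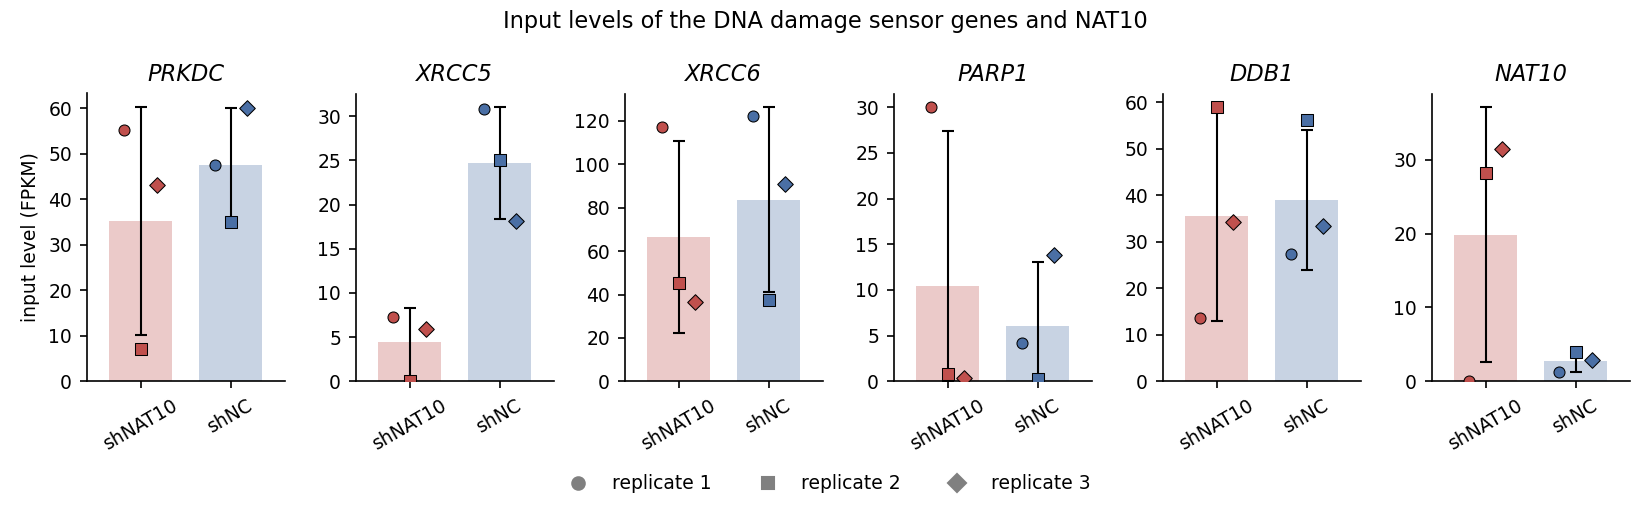
Input level in FPKM (vertical, linear, each gene at its own scale) of the 5 genes and NAT10 in the libraries labelled shNAT10 (red) and shNC (blue). Bars are means, error bars are SD (n = 3, cut at 0) and symbols are single libraries. XRCC5 does not overlap between the groups, and NAT10 is at 0 in shNAT10 replicate 1 and at 28.1 and 31.4 in replicates 2 and 3.

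By mean FPKM over the 6 libraries the order was XRCC6 (75.0), PRKDC (41.4), DDB1 (37.3), XRCC5 (14.5) and PARP1 (8.25). These are levels per length of the authors' gene model, whose recovered length was 3288 nt for XRCC6, 15417 nt for PRKDC, 13950 nt for DDB1, 5463 nt for XRCC5 and 7169 nt for PARP1. Within libraries, XRCC6 exceeded PRKDC by 0.90 ± 0.98 on the log2 scale (SD, n = 6) and PRKDC exceeded DDB1 by 0.06 ± 1.66. DDB1 exceeded XRCC5 by 1.82 ± 2.16 and XRCC5 exceeded PARP1 by 1.15 ± 2.37. No step between neighbours was larger than its SD. XRCC6 lay at the 92.7 percentile of mean FPKM among tested genes and PARP1 at the 52.9 percentile. Of the 3177 tested coding genes with a mean between those of PARP1 and XRCC6, 50.4% were at 0 in at least 1 library labelled shNAT10 and 37.1% in at least 1 shNC library. A deposited peak was listed for 25.1% of them, for 19% of all tested protein-coding genes and for 15.4% of all tested genes.

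The coding genes whose input profile was most like that of each gene were found by Pearson's r of log2(FPKM + 1) over the 6 libraries, as a description. They were LMAN1 (r = 0.997) and RAB10 (0.990) for PRKDC, EFR3A (0.997) and MRPL28 (0.976) for XRCC5, and HK2 (0.991) and CCDC50 (0.991) for XRCC6. For PARP1 they were GOLM1 (0.995) and TK2 (0.994), and for DDB1 HMGB1 (0.992) and MTHFD1 (0.981). With 6 points that share library and depth, 3 to 30 of the 8139 coding genes compared reached r over 0.95 for each gene. None of the 5 genes was among the nearest 2 of another.

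The wider DNA repair network gave no call either. The 6 repair lists held 96 genes, of which 72 were tested, and limma called 0 of them. It called 0 of the 8140 protein-coding genes tested as well, and 20 (0.19%) of all 10517 genes tested. The absence of calls is therefore not read as a result about repair genes. An unadjusted limma p under 0.05 was found for 3 of these 72. It was found for 389 of all 10517 genes tested and for 178 of the 8140 protein-coding genes tested. The difference between these shares was not tested. Each list median below changed sign or moved by over 1.5 times when 1 library was left out, so none is read as a direction of its list. Their median log2 difference was -0.13, with 35 above 0 and 37 below, against a median of -0.49 and 58.8% below 0 over all tested genes.

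Among partners of DNA-PK in end joining, 9 of 13 were tested, the median log2 difference was -0.67 (0.27 without shNAT10 replicate 2, 0.79 without shNC replicate 3, -1.82 without shNAT10 replicate 1 and -1.31 without shNC replicate 2), and 0 of the 13 carried a deposited peak. PAXX, a Ku-binding factor, had 25.8, 0 and 34.8 FPKM in the libraries labelled shNAT10 against 120, 1.34 and 58.5 in shNC. The ligase LIG4 was above 0 in 1 library, shNC replicate 2, at 1.67 FPKM, and its cofactors XRCC4 and NHEJ1 were listed at 0 in all 6; these 3 were named after their values were seen. PARP family and base excision repair genes had a median of 0.53 over 9 of 15. It was 0.18 without shNAT10 replicate 1, 0.21 without shNAT10 replicate 2 and 0.29 without shNC replicate 2, but 1.25 and 1.26 without shNC replicates 1 and 3. APEX1, the main abasic-site endonuclease, had 20.6, 137 and 8.85 FPKM against 32.4, 102 and 151, and FEN1, a flap endonuclease, had 41.2, 0 and 0 against 4.29, 0 and 13.4. UNG, the uracil glycosylase, was the 1 member with a deposited peak (log2 change -3.32).

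Genes of the DDB1-CUL4 ligase and nucleotide excision repair had a median of -0.69 over 18 of 21. It was 0.16 without shNC replicate 2, -0.10 without shNAT10 replicate 2, and -1.32 and -1.22 without shNAT10 replicate 3 and shNC replicate 3. CUL4B, a scaffold that DDB1 binds, was at 56.5, 27.3 and 48.3 FPKM in the libraries labelled shNAT10, against 0, 1.26 and 0 in shNC. Its groups did not overlap, as for 9.61% of all tested genes. The log2 difference of 5.04 (SE 1.81) did not pass (limma adjusted p = 0.702). The other scaffold CUL4A had 1.83, 1.95 and 21.3 against 0.376, 40.2 and 10.5, and RAD23B, a partner of XPC, had 0, 0 and 48.7 against 16.2, 17.5 and 0.0632. CUL4A carried a 3′ UTR peak (deposited log2 change -4.36) and DDB2 an exonic one (-3.47). DCAF1, a substrate receptor of the ligase, had a coding peak of positive deposited change (6.75).

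Sensing and checkpoint genes had a median of 0.52 over 15 of 20. It was -0.29 without shNAT10 replicate 3, 0.17 without shNC replicate 2, and 1.47 and 1.15 without shNAT10 replicate 2 and shNC replicate 1. H2AX, the histone that DNA-PK and ATM phosphorylate (H2AFX in the table), had 488, 11.6 and 173 FPKM against 20.1, 0.377 and 116. The checkpoint kinase CHEK2 had 140, 105 and 52.0 against 27.8, 4.70 and 6.76, groups that did not overlap, and did not pass (limma adjusted p = 0.754). Among tested repair genes, CUL4B, OGG1 and BRCA2 were also higher without overlap, and APLF, APTX, ERCC2, AMBRA1, RAD54L and RIF1 were lower. OGG1 and the lower genes were named after their values were seen. Groups did not overlap for 9.61% of all tested genes, so this is not read as a result about the lists. RAD50 carried a 5′ UTR peak (deposited log2 change -3.59), and TP53BP1 a 3′ UTR peak with a deposited fold of 656 and a change of 8.14. Homologous recombination genes had a median of -1.23 over 13 of 19, and of 0.94 without shNC replicate 1. Their most abundant members were RPA1, which coats single-stranded DNA, at 1.05, 76.3 and 8.97 against 3.18, 2.05 and 2.02, and the recombination factor XRCC3, at 6.52, 0 and 23.7 against 34.7, 17.4 and 3.96. BRCA2, named because its unadjusted p was under 0.05 as were those of CUL4B and CHEK2, had 8.44, 21.8 and 21.9 against 0, 0.0744 and 0 (limma adjusted p = 0.754). Coding peaks in BARD1 and RPA1 had deposited changes of -6.63 and -5.29.

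Mismatch repair genes had a median of -0.13 over 8 of 8. It was 0.60 without shNAT10 replicate 3 and -1.26 to -0.16 without each other library. PCNA, the sliding clamp, had 0, 0 and 159 FPKM against 3.82, 67.1 and 77.0. PCNA carried 2 coding peaks (deposited changes -5.49 and -4.56), and MSH6 had 1 in the 3′ UTR (-3.98). In all, 11 of the 96 repair genes had a deposited peak (11.5%), and of the 72 tested 10 had one (13.9%). A deposited peak was listed for 15.4% of all tested genes and for 19% of the tested protein-coding genes. The 12 peaks of the repair genes comprised 10 negative and 2 positive deposited changes.

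**Figure D4:**
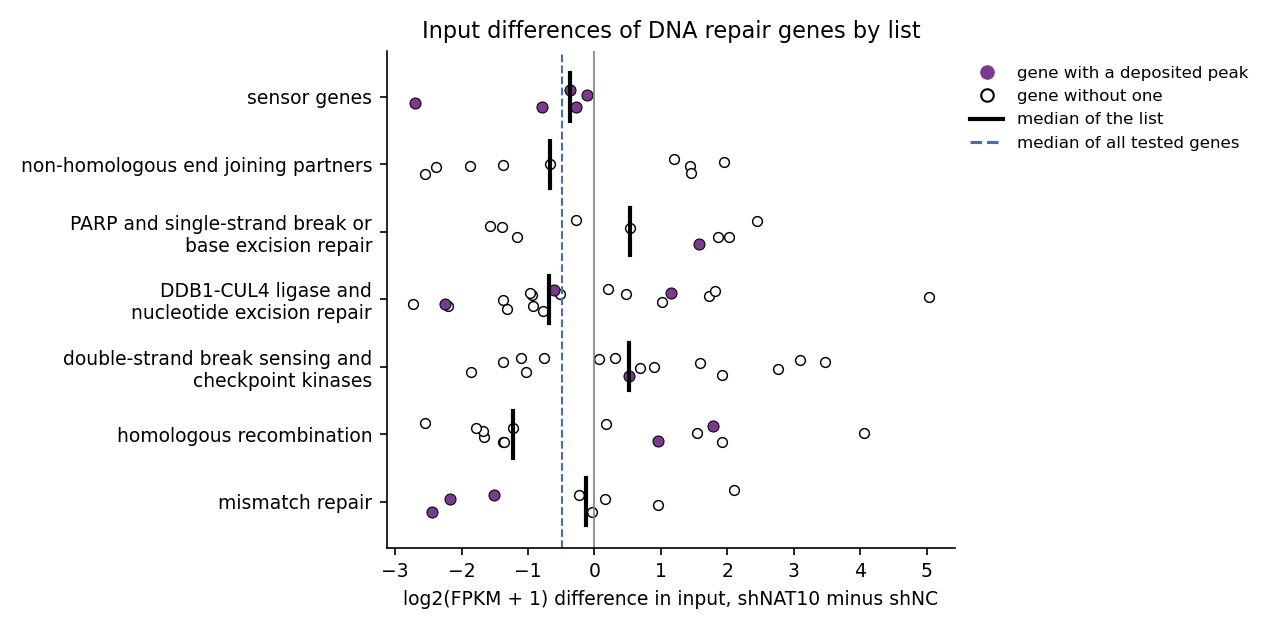
Difference in log2(FPKM + 1) between input libraries, shNAT10 minus shNC (horizontal), for the tested members of each repair list and for the 5 genes (top row, chosen for their peaks). Filled points carry a deposited peak, thick bars are list medians and the dashed line is the median of all tested genes, -0.49. Points lie on both sides of 0 in every repair list, and none passed the limma test.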

How the data were processed

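Input RNA of 6 libraries and a table of differential peaks were analysed; the immunoprecipitated libraries themselves were not analysed here. Gene levels are FPKM values made by the authors, deposited with the input libraries as columns. Columns named NC with a number matched shNC titles, and those beginning with sh went to shNAT10 by elimination, and 0 per-sample columns were left unmapped. Per the file headers, the deposited peak table gives each peak a fold enrichment ratio, a log2 fold change of a differential test, scores that are the log10 of a p-value or FDR, and a count of motif sites. Tools named in the submitters' processing notes, without their roles, were HOMER 4.10.4, HISAT2 2.1.0 and cutadapt 2.5, and the builds named there were GRCh38 and, for mouse, GRCm38. Peak positions were taken to be GRCh38, since the 13 peaks lie within the RefSeq GRCh38 spans of their genes. The sources used here do not name the peak caller, the strand setting or how replicates were pooled.

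Whole fragments were recovered by finding the library scale that made mitochondrial mRNAs whole at their RefSeq lengths, then the shortest gene length that made all 6 values whole within 0.001. This worked for 15004 of 15014 genes above 0. The scale was 0.981 to 1.27 times the fragments on genes. A length so found may be a fraction of the true one. Fragments are not marked for PCR copies, so intervals cover counting error only. The test was limma 3.58.1 (R 4.3.3, lmFit and eBayes, trended prior) on log2(FPKM + 1), run on every gene averaging 1 FPKM or more. Adjustment was by Benjamini-Hochberg over all these genes, with 0.05 as the threshold. The fit has 212.6 prior degrees of freedom, so an SE rests mostly on genes of like level. Same-numbered libraries did not deviate together (correlations 0.00, -0.02 and 0.01), and the replicate block was therefore tried only as an alternative. The fragment recovery and the limma fit were tested on simulated data. The 5 genes, the lists and the tests were chosen with earlier results of these data known. Named list genes were the 2 most abundant of each list and up to 5 with a peak; some of these are not reported here. Of 123 list genes 3 matched through an older symbol.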

Additional observations from a re-analysis of the deposited data

How the results depend on the processing

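None of the 5 genes passed under any of the 17 alternatives (limma adjusted p from 0.505, for XRCC5 by voom on recovered fragments, to 0.999). XRCC5 was lower in the libraries labelled shNAT10 under each of them, with differences from -4.99 to -1.61. Its groups did not overlap, so leaving out libraries or changing the pseudocount could not turn this sign. Those settings therefore give no support for the direction. With 1 replicate left out the differences ran from -1.32 to 0.072 for PRKDC, -3.25 to -1.73 for XRCC5, -0.86 to -0.01 for XRCC6, -1.54 to 0.73 for PARP1, -0.75 to 0.27 for DDB1 and 0.62 to 3.13 for NAT10. Signs turned for PARP1 after quantile normalization (0.65) and for NAT10 with a pseudocount of 0.01 (-0.23). Dropping shNAT10 replicates 2 and 3 together (this and voom were chosen after seeing the data) turned them for PRKDC (0.25), XRCC6 (0.64), PARP1 (2.76) and NAT10 (-1.81). Both replicates were dropped for their NAT10 level, so the turn of NAT10 was fixed by that choice. The causes were not tested. The number of genes called by limma over all genes was 20, and it was 7 with a pseudocount of 0.01, 10 at a mean FPKM of at least 5, 95 by voom, and 1 to 34 with 1 replicate left out. It was 0 with no filter (340 at an unadjusted p under 0.05) and 0 with both replicates left out (1139). With the replicate block it was 21, and the block changed no call among the 5 genes. Of the 20, 9 were higher and 11 lower. Voom called 19 higher and 76 lower, quantile normalization 7 and 16, median ratio scaling 8 and 6, and TPM 8 and 14. The median difference of all genes moved by -0.27 on the TPM scale and 0.41 after quantile normalization, while XRCC5 was at -3.28 and -2.43 there. All 13 peaks, the 11 negative ones included, had a deposited differential FDR under 0.01 and a log2 change of at least 2 in size. None overlapped another. The genes were named with these values known, so this describes the peaks and is no check of them. The PARP1 levels rested on 3 to 9 fragments in 3 libraries, and XRCC5 had 0 fragments in shNAT10 replicate 2. With a mean FPKM of at least 5 the list medians were 0.26 for end joining, 0.34 for DDB1-CUL4 and 0.20 for homologous recombination, the opposite sign of those reported, and with a pseudocount of 0.01 they were -3.35, -1.54 and -3.14. With shNAT10 replicates 2 and 3 left out the PARP and base excision median was -0.34.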

Other observations

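The place of the listed motif sites differed by strand in spliced peaks of the deposited table. In peaks of several blocks on the minus strand, 342 of 827 listed sites (41.4%) lay inside the blocks, against 715 of 721 (99.2%) on the plus strand. In peaks of 1 block the shares were 100% on the minus strand and 98.8% on the plus strand. The 3 PARP1 sites are among those outside, and 4 of the 8 DDB1 sites, in its spliced peaks, are among those inside. The share of peaks with at least 1 site was 62.1% on the minus strand and 64.8% on the plus strand, so the counts per peak were close while the positions were not.

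Neighbouring peaks of opposite deposited sign, such as the DDB1 pair 89 nt apart, were seen elsewhere too. Of 37 pairs of adjacent peaks in 1 gene with a gap of at most 200 nt, 12 (32.4%) had opposite signs, against 43.8% of 422 adjacent pairs at any gap without overlap.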
